A study of Mus musculus with 6 samples.

Results

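Hepatocytes near the central vein of the liver lobule carry a gene programme that depends on Wnt signalling, and 10 of its genes were examined here: Glul, Oat, Slc1a2, Rhbg, Cyp2e1, Cyp1a2, Axin2, Rnf43, Lgr5 and Tbx3. They were taken by gene symbol, not by their values, and all 10 were found among the 24034 genes of the deposited table. The data are RNA sequencing of liver from C57BL/6 mice aged 25 weeks, with 3 libraries from wild type animals (WT, genotype lncenc1wt/wt) and 3 from the group HO (genotype lncenc13A/3A). Lncenc1 is a long non-coding RNA gene. The design text calls the mutant animals knockouts, but what the 3A allele changes in the gene, the substrain and the sex are left unsaid by the labels. No source says whether the libraries of a group came from different animals, so p-values measure the spread between these libraries, which may be technical. The genotype labels were not checked in the data, since the RNA of Lncenc1 itself is not analysed here. Expression was in FPKM, a fragment count corrected for gene length and library size.

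As background, Wnt ligands and R-spondin from the endothelium of the central vein stabilise beta-catenin in the hepatocytes beside it. Beta-catenin then acts with TCF/LEF factors to switch on the pericentral genes, while hepatocytes near the portal vein express a different set. Pericentral hepatocytes capture ammonia as glutamine and hold much of the liver's cytochrome P450 activity. Among the 10 genes, Glul, Oat, Slc1a2 and Rhbg serve ammonia and glutamate handling. Cyp2e1 and Cyp1a2 are P450 enzymes, and Axin2, Rnf43, Lgr5 and Tbx3 are components or targets of the pathway itself.

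RefSeq promoter windows (GRCm38.p6, the assembly of mm10) were matched for 7 of the 10 genes and searched over the 250 bases upstream of each start. The searched letters were CTTTGAT and CTTTGAA, which extend the TCF/LEF core, and GCGTG, the core of the aryl hydrocarbon receptor element, on both strands. A TCF/LEF match was present for 3 of the 7 genes, against 7.48% of all 32851 windows. These 3 are shown because they hold the match, which is in capitals, and each is printed on the strand of its gene up to the first base that GENCODE places in an exon. The Cyp2e1 stretch is chr7:140763569-140763738 (plus strand), that of Cyp1a2 is chr9:57683704-57683905 (minus strand), and that of Slc1a2 is chr2:102706188-102706355 (plus strand).
Cyp2e1: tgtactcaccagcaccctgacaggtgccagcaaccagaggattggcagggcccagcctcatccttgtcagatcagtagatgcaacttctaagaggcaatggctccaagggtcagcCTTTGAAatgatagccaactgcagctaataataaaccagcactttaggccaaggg
Cyp1a2: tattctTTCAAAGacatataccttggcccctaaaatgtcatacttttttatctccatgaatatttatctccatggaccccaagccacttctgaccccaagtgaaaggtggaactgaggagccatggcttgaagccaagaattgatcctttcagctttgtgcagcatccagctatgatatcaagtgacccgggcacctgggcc
Slc1a2: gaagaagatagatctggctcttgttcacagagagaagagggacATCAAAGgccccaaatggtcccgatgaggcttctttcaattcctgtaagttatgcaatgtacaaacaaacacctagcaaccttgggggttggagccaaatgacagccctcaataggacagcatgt

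The Cyp2e1 window reads CTTTGAA on the gene's own strand, from position -135 to -129 relative to the RefSeq start. In Cyp1a2 the same letters stand on the opposite strand, from -244 to -238. Slc1a2 holds CTTTGAT on the opposite strand, from -207 to -201. For all 3 genes the RefSeq start lies inside the GENCODE gene, so these positions are not distances from the GENCODE start. The Slc1a2 start lies farthest inside: its searched window ends at 102706437, while the GENCODE gene begins at 102658659. Glul, Oat, Axin2 and Rnf43 held neither TCF/LEF string in this window. GCGTG was present in 1 of 2 Rnf43 windows, in none of the other 6 genes, and in 28.2% of all windows. That Rnf43 window begins inside an exon of the gene as placed by GENCODE. The windows of Glul and Axin2 had a GC content of 64.8% and 69.2%, and the 3 printed stretches lay between 45.5% and 51.2%. A match of letters is a description of the sequence, not a measured binding site.

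None of the 10 genes differed between the groups past the threshold, and they did not lean one way. In the comparison of HO with WT by limma across 13250 genes (Benjamini-Hochberg adjustment), 0 of the 10 were called, with adjusted p between 0.138 and 0.881. Of all tested genes, 1.14% were called, 0.325% as higher and 0.815% as lower in HO. With median-of-ratios scaling 70 genes were called higher and 64 lower, and with quantile normalization 56 and 72, in place of 43 and 108. Before adjustment, 4 of the 10 (Cyp1a2, Lgr5, Glul and Slc1a2) had p under 0.05, as did 21.5% of all genes. In 5 genes the change was positive and in 5 negative, and their median log2 change was 0.00 (HO minus WT on the log2(FPKM + 0.5) scale), against -0.09 over all tested genes. Median-of-ratios scaling moved both medians up together, to 0.11 and 0.01. The 3 HO values lay all above the 3 WT values for Cyp1a2, Slc1a2 and Axin2, and all below them for Lgr5. Such a gap between groups was seen in 27.9% of all tested genes, upwards in 6.42% and downwards in 21.4%. The 10 genes were picked by symbol with earlier results known, so these counts are a description.

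**Figure D1:**
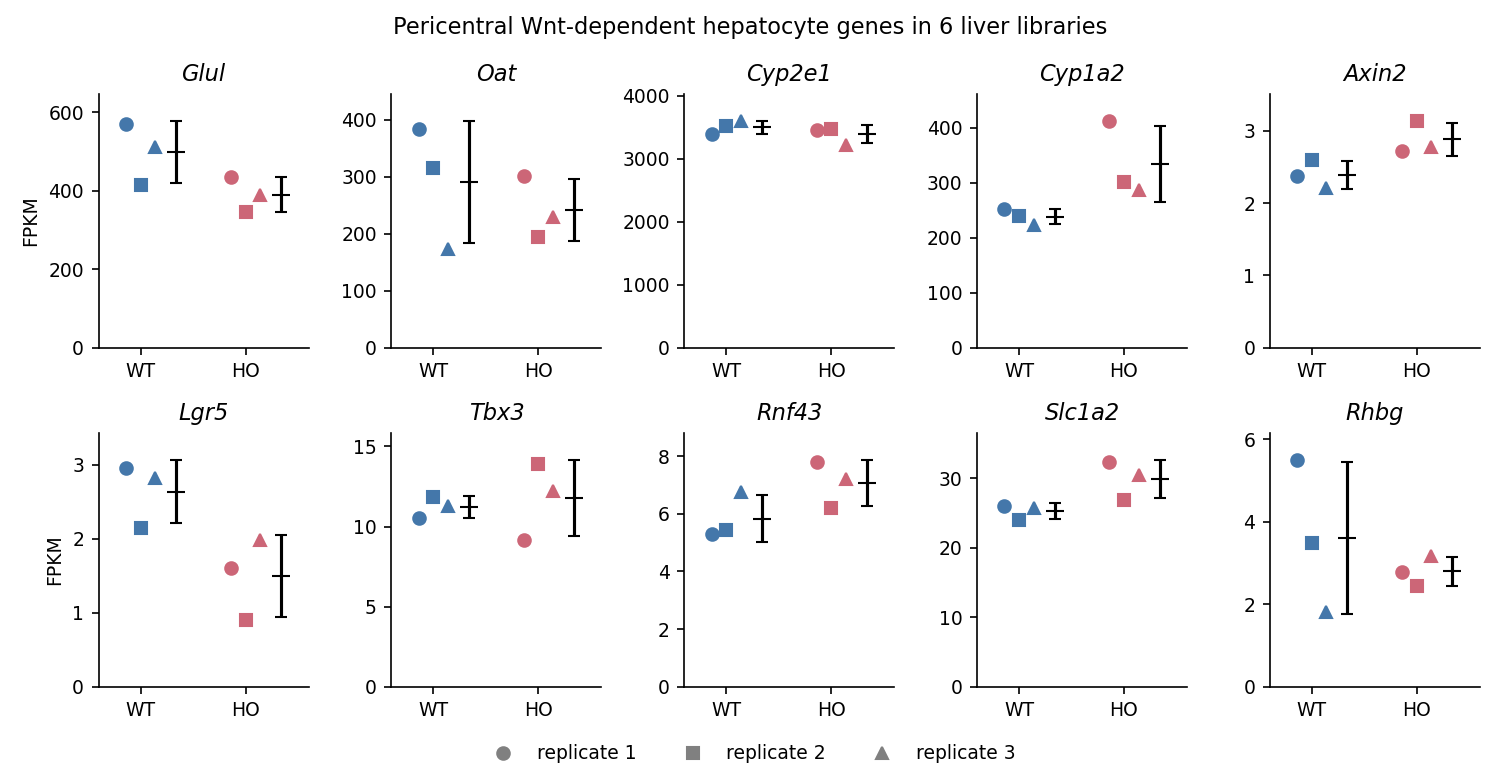
FPKM of the 10 genes in each library, on linear axes that start at 0 and differ between panels; symbols mark the replicate number, and the black bar is the mean with its SD (n = 3 per group). The groups are apart for Cyp1a2, Axin2, Lgr5 and Slc1a2 and overlap for the other 6 genes.

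In order of mean FPKM, Cyp2e1 stood far above the rest, at rank 17 of the whole table and 0.682% of all FPKM. Its lowest library, at 3219 FPKM, exceeded the highest value of any other member, 571.7 FPKM for Glul. Glul, Cyp1a2 and Oat followed, with ranges of 345.5 to 571.7, 223.3 to 412.5 and 173.5 to 383.8 FPKM that overlapped one another. Slc1a2 (24.0 to 32.3 FPKM) and Tbx3 (9.19 to 13.9 FPKM) were each separate from their neighbours. Rnf43 (5.29 to 7.79 FPKM) overlapped the single highest Rhbg value of 5.50 FPKM. The lowest levels, those of Rhbg, Axin2 and Lgr5, could not be ordered beyond the spread between libraries.

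The genes of ammonia and glutamate handling differed in direction, and the widest spread among them was within WT. Glul, which encodes glutamine synthetase and marks the hepatocyte rows that touch the central vein, lies on chromosome 1 from 153899944 to 153909723. Glul had 571.7, 414.1 and 511.9 FPKM in the WT libraries and 435.7, 345.5 and 390.4 FPKM in HO. The groups overlapped, since WT replicate 2 lay below HO replicate 1. Glul means were 499.2 ± 79.6 FPKM in WT and 390.5 ± 45.1 FPKM in HO (SD, n = 3), a log2 change of -0.35 with a 95% interval from -0.69 to -0.01 (limma adjusted p = 0.225). That interval is for this gene alone, without adjustment for the number of genes tested.

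Oat encodes ornithine aminotransferase, a mitochondrial enzyme that links ornithine to glutamate, on chromosome 7 from 132557478 to 132576398. It measured 383.8, 315.8 and 173.5 FPKM in WT and 301.2, 194.2 and 229.5 FPKM in HO. WT replicate 3 was the lowest library of all and WT replicate 1 the highest, so the WT range enclosed every HO value. The log2 change of Oat was -0.22 (95% interval -0.92 to 0.49, limma adjusted p = 0.722). Without WT replicate 3 it was -0.55, and without WT replicate 1 it turned to 0.02. Rhbg, an ammonia channel of the Rh family, lies on chromosome 3 from 88242874 to 88254709. Its values followed the same libraries, with 5.50, 3.48 and 1.82 FPKM in WT and 2.79, 2.45 and 3.16 FPKM in HO. Again WT replicate 1 was highest and WT replicate 3 lowest, and the HO values fell between them. The log2 change of Rhbg was -0.21 (95% interval -0.97 to 0.54, limma adjusted p = 0.744), and it was 0.11 without WT replicate 1 and -0.57 without WT replicate 3. Rhbg shares 1190 of its 1937 exonic bases with the gene model Gm38392 on the same strand, which stayed at or under 0.0491 FPKM. No source says how reads in shared bases were assigned, so the level of Rhbg is less certain.

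Slc1a2, a glutamate transporter of pericentral hepatocytes that is best known from astrocytes, lies on chromosome 2 from 102658659 to 102790784. Its levels were 26.0, 24.0 and 25.8 FPKM in WT and 32.3, 26.9 and 30.5 FPKM in HO. The groups did not overlap, but HO replicate 2 lay close to the highest WT library. The log2 change was 0.24 (95% interval 0.00 to 0.47, limma adjusted p = 0.226).

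Other genes of glutamine, glutamate, ornithine and ammonia handling showed no common direction. Of 24 listed, 22 were in the table and 18 passed the filter on low values. None was called, 8 were positive and 10 negative, and the median log2 change was -0.02. The glutamine transporter gene Slc38a3 had the smallest p of the list, with 293.4 ± 19.2 FPKM in WT and 451.2 ± 93.8 FPKM in HO (log2 change 0.60, limma adjusted p = 0.0912). Slc7a2, a transporter of cationic amino acids such as ornithine and arginine, had 48.2 ± 3.62 and 73.2 ± 16.5 FPKM (log2 change 0.57, limma adjusted p = 0.127). For both genes every HO library exceeded every WT library.

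The P450 genes were level in Cyp2e1 and higher in every HO library in Cyp1a2, without a call for either. Cyp2e1, which oxidises ethanol, acetone and many solvents, lies on chromosome 7 from 140763739 to 140774987. It was the steadiest gene of the set, with 3391, 3513 and 3592 FPKM in WT and 3457, 3474 and 3219 FPKM in HO. Its log2 change was -0.05 and the 95% interval ran from -0.27 to 0.17 (limma adjusted p = 0.798). Its sign depended on scaling: quantile normalization gave -0.34 and median-of-ratios 0.06. Cyp1a2, which metabolises caffeine and aromatic amines, lies on chromosome 9 from 57676937 to 57683703. It had 251.8, 240.0 and 223.3 FPKM in WT, and 412.5, 301.4 and 286.4 FPKM in HO. All HO libraries were higher, HO replicate 1 by the widest margin. The means were 238.4 ± 14.3 and 333.4 ± 68.9 FPKM, and the log2 change of 0.47 (95% interval 0.12 to 0.81) had the smallest adjusted p of the 10 genes (limma, 0.138). Without HO replicate 1 it was 0.30.

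Cyp1a2 is also a textbook target of the aryl hydrocarbon receptor, so genes of that pathway were set beside it. Of 9 listed, 8 were in the table and 5 passed the filter, with none called, 2 positive and 3 negative, and a median log2 change of -0.51. The positive ones, named after their values were seen, were Tiparp (0.25), a target of the receptor, and Arnt (0.22), its partner, and for both the groups overlapped. The receptor gene Ahr had 12.3 ± 2.09 FPKM in WT and 8.25 ± 1.14 FPKM in HO (log2 change -0.54, limma adjusted p = 0.116). Nqo1, a quinone reductase induced by the receptor and by NRF2, had 4.52 ± 1.03 and 1.71 ± 0.648 FPKM (log2 change -1.21, limma adjusted p = 0.0769). In both, each HO library was below each WT library, opposite in sign to Cyp1a2. Cyp1a1, the other P450 of its subfamily, was under the filter.

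**Figure D2:**
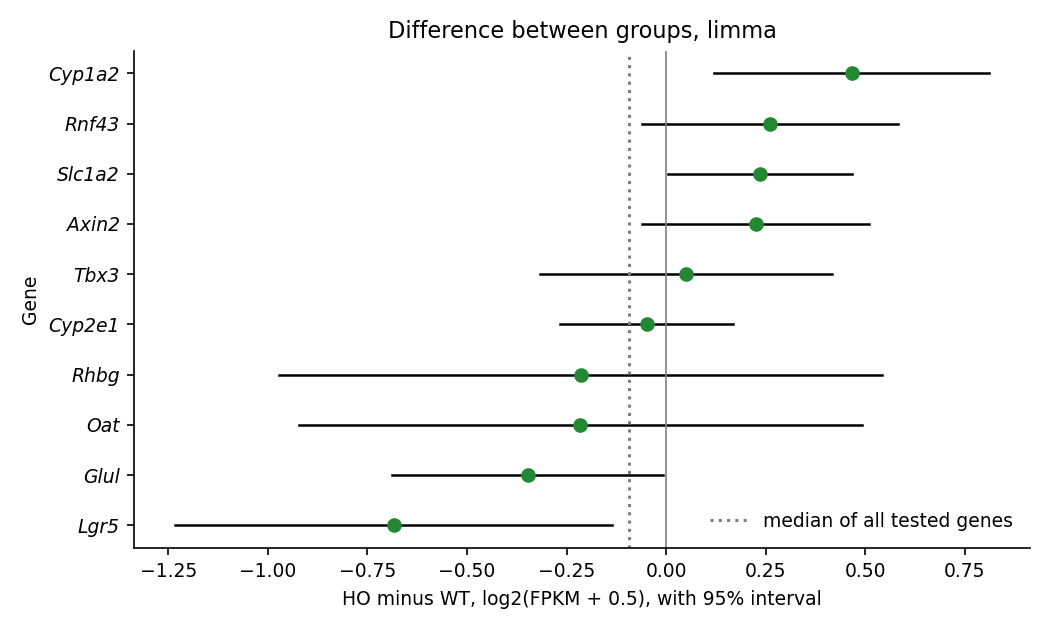
Log2 change of each of the 10 genes (HO minus WT, log2(FPKM + 0.5); points) with its limma 95% interval (lines), ordered by size; the dotted line is the median of all tested genes, -0.09. The points run from -0.68 for Lgr5 to 0.47 for Cyp1a2 on both sides of 0.

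Pathway genes of the set also lay on both sides of 0. Axin2, a scaffold of the complex that degrades beta-catenin and a direct target that feeds back on the pathway, lies on chromosome 11 from 108920349 to 108950783. It had 2.37, 2.60 and 2.21 FPKM in WT and 2.72, 3.14 and 2.78 FPKM in HO. The HO libraries were all higher, with a narrow gap between the groups. Its log2 change was 0.23 (95% interval -0.06 to 0.51, limma adjusted p = 0.330). The antisense gene Gm11670 shares 209 exonic bases with Axin2 and was listed at 0.0930, 0.124 and 0.139 FPKM in WT and at 0 in all HO libraries. At these levels Gm11670 was under the filter and was not tested.

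Rnf43 encodes a ubiquitin ligase that removes Frizzled receptors from the cell surface, on chromosome 11 from 87662722 to 87735539. Its levels were 5.29, 5.42 and 6.76 FPKM in WT and 7.79, 6.21 and 7.22 FPKM in HO. WT replicate 3 exceeded HO replicate 2, so the groups overlapped. The log2 change of Rnf43 was 0.26 (95% interval -0.06 to 0.58, limma adjusted p = 0.319).

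Lgr5, a receptor for R-spondins that is confined in healthy liver mostly to the hepatocytes next to the central vein, lies on chromosome 10 from 115450311 to 115587780. It had 2.95, 2.15 and 2.82 FPKM in WT, and 1.61, 0.897 and 1.98 FPKM in HO. Every HO library was below every WT library, and HO replicate 2 was lowest. Means were 2.64 ± 0.429 and 1.49 ± 0.549 FPKM, with a log2 change of -0.68 (95% interval -1.23 to -0.14, limma adjusted p = 0.160), the largest of the 10 in size. It ranged from -0.86 without HO replicate 3 to -0.45 without HO replicate 2.

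Tbx3, a T-box transcription factor downstream of beta-catenin, lies on chromosome 5 from 119670669 to 119684724. With 10.5, 11.9 and 11.3 FPKM in WT and 9.19, 13.9 and 12.2 FPKM in HO, its HO values enclosed those of WT. The log2 change was 0.05 (95% interval -0.32 to 0.42, limma adjusted p = 0.881), and it was -0.08 without HO replicate 2. Tbx3os1, an antisense gene that shares 115 exonic bases with Tbx3, had 12.4, 8.59 and 11.4 FPKM in WT and 7.90, 7.57 and 6.87 FPKM in HO. Its groups did not overlap, unlike those of Tbx3 (log2 change -0.50, limma adjusted p = 0.125). The library kit was directional, but no source says whether reads were assigned by strand, so antisense pairs cannot be told apart with certainty.

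Upstream of these genes, no ligand, receptor or transducer was called. Of 23 listed genes for Wnt and R-spondin ligands, their secretion and receptors, 21 were in the table and 14 passed the filter. Of these 14, 6 were positive and 8 negative, with a median log2 change of -0.05. All HO libraries lay above all WT libraries in 1 and below them in 2, beside 6.42% and 21.4% of all tested genes. The log2 changes ran from -0.73 for Rspo3 to 0.65 for Fzd7, named after its values were seen, where the groups overlapped (limma adjusted p = 0.220). Rspo3, the R-spondin of central vein endothelium, had 2.28, 2.61 and 1.83 FPKM in WT and 0.958, 1.36 and 1.13 FPKM in HO. The groups were apart, with a log2 change of -0.73 (95% interval -1.12 to -0.34), but the adjusted p was 0.0804 (limma). Across the alternatives its adjusted p ran from 0.0367, with array weights, to 0.249. Wnt2, a ligand of sinusoidal and central vein endothelium, had 1.09, 1.13 and 0.619 FPKM in WT and 1.03, 0.570 and 0.596 FPKM in HO, with overlap (limma adjusted p = 0.587). Wnt9b, the other main ligand of the central vein, lay between 0.0701 and 0.348 FPKM, under the filter, and was not tested. The receptor gene Fzd1 had 2.70 ± 0.172 and 1.86 ± 0.208 FPKM (log2 change -0.44, limma adjusted p = 0.116).

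The intracellular part of the pathway showed no common direction. Of 21 genes, 19 passed the filter, 8 positive and 11 negative. Their log2 changes ran from -0.87 to 0.48, with a median of -0.05. All HO libraries lay above all WT libraries in 1 gene (Hnf4a) and below them in 3, beside 6.42% and 21.4% of all tested genes. Hnf4a was counted in this list although it is not itself a transducer of the pathway, and it is also among the hepatocyte markers. The 2 with the smallest p were Hnf4a, a hepatocyte transcription factor that opposes beta-catenin at many zonated genes (146.2 ± 26.4 and 203.4 ± 33.9 FPKM, log2 change 0.48, limma adjusted p = 0.171), and Dvl1, an adaptor below Frizzled (16.5 ± 0.400 and 14.5 ± 0.259 FPKM, log2 change -0.18, limma adjusted p = 0.250). Of 21 feedback inhibitors, secreted antagonists and other common targets, 10 passed the filter, 2 positive and 8 negative, with none called. Their log2 changes ran from -1.44 to 1.00, with a median of -0.17.

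Nkd1, an inhibitor that binds Dishevelled and is itself a Wnt target, had 1.83, 1.81 and 1.59 FPKM in WT and 0.830, 0.657 and 0.952 FPKM in HO. Its groups were well apart, with a log2 change of -0.78 (95% interval -1.12 to -0.43), that missed the threshold narrowly (limma adjusted p = 0.0582, and 0.0342 to 0.210 over the alternatives). Tnfrsf19, a receptor of the TNF family that Wnt signalling can induce, had 3.40, 1.98 and 2.61 FPKM in WT and 1.06, 0.337 and 0.640 FPKM in HO. It too was apart between the groups and short of the threshold, with a log2 change of -1.44 (limma adjusted p = 0.0571, and 0.0310 to 0.191 over the alternatives). Both passed with array weights, and Tnfrsf19 also without HO replicate 1.

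Among other genes of pericentral hepatocytes, 3 enzymes of drug and toxin metabolism were lower in HO. Of 30 listed, all passed the filter, 23 were negative and 7 positive, and the median log2 change was -0.40. The log2 changes ran from -2.10 for Cyp7a1 to 0.89 for Por. Cyp7a1, named after its values were seen, had 44.2 ± 13.3 FPKM in WT and 10.4 ± 5.77 FPKM in HO. Its groups were apart, but it was not called (limma adjusted p = 0.0526). Called as lower were 3 (Cyp3a11, Gstm1 and Gsta3) and as higher 0, beside 0.815% and 0.325% of all tested genes. In 16 of the 30 all HO libraries lay below all WT libraries, which held for 21.4% of all tested genes, and in 2 (Por and Avpr1a, named after their values were seen) all lay above, which held for 6.42%. Por, the reductase that supplies electrons to P450 enzymes, had 93.3 ± 26.3 FPKM in WT and 172.3 ± 35.9 FPKM in HO (log2 change 0.89, limma adjusted p = 0.0912). For Avpr1a, a vasopressin receptor gene, the means were 5.11 ± 0.101 and 8.80 ± 2.12 FPKM (log2 change 0.70, limma adjusted p = 0.0932). Cyp3a11, a P450 of drug and steroid metabolism, fell from 444.1 ± 62.0 to 222.5 ± 30.6 FPKM (log2 change -0.99 ± 0.14 SE, limma adjusted p = 0.0339). The glutathione transferase gene Gstm1 went from 586.9 ± 46.8 to 309.3 ± 53.3 FPKM (log2 change -0.93 ± 0.14 SE, limma adjusted p = 0.0360). Gsta3, of another class of the same enzymes, went from 995.2 ± 97.6 to 628.3 ± 48.6 FPKM (log2 change -0.66 ± 0.11 SE, limma adjusted p = 0.0484). The difference between this list and the 10 genes was not tested. When single libraries were left out, the log2 changes stayed between -1.11 and -0.90 for Cyp3a11, -1.06 and -0.82 for Gstm1, and -0.75 and -0.62 for Gsta3, but the number of calls varied. With WT replicate 1, WT replicate 2 or HO replicate 3 left out, 0 genes of the list were called lower; the count was 1 when HO replicate 1 was left out (Cyp3a11), 1 for HO replicate 2 (Gstm1) and 5 for WT replicate 3. Reads of Cyp3a and glutathione transferase genes can be shared with close relatives, so these values are less certain.

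Periportal genes, from the other end of the lobule, had a median log2 change near that of all tested genes. All 25 passed the filter, 10 positive and 15 negative, and the median was -0.06. In 6 of the 25 all HO libraries lay above all WT libraries, which held for 6.42% of all tested genes. In 4 all lay below, which held for 21.4%. Cps1, the enzyme that starts the urea cycle, was the only one called, beside 0.325% of all tested genes called higher. It rose from 399.0 ± 41.3 to 729.1 ± 111.3 FPKM (log2 change 0.86 ± 0.13 SE, limma adjusted p = 0.0422), and with single libraries left out the log2 change stayed between 0.74 and 0.95, though the call was lost when any library other than WT replicate 3 or HO replicate 1 was left out. Hsd17b13, a lipid droplet enzyme, had 245.8 ± 3.41 and 192.4 ± 13.1 FPKM (log2 change -0.35, limma adjusted p = 0.0811).

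**Figure D3:**
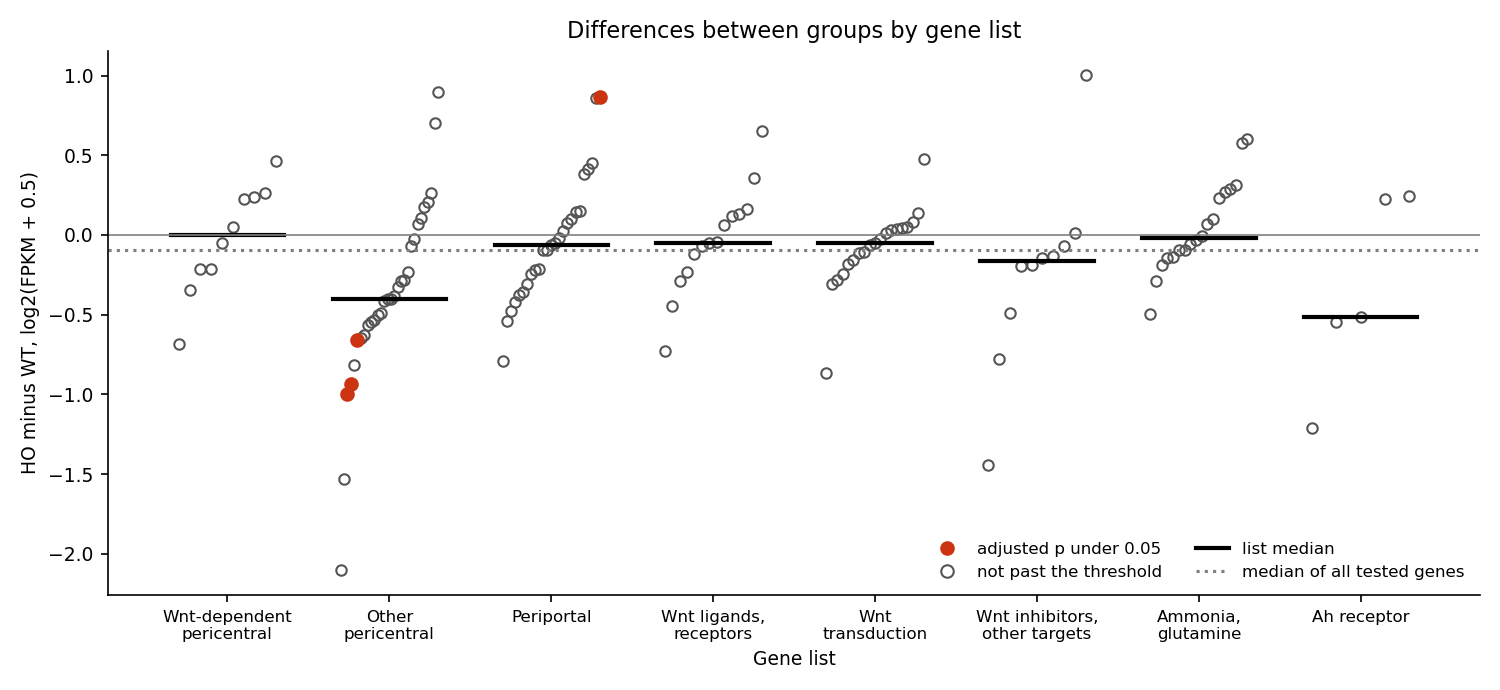
Log2 change (HO minus WT, log2(FPKM + 0.5)) of every gene past the filter in 8 lists, sorted within each list; filled red points passed an adjusted p of 0.05, black bars are list medians and the dotted line is the median of all tested genes. Red points are 3 other pericentral genes, below 0, and 1 periportal gene, above 0.

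Across libraries, the 10 genes did not vary as 1 block. Over their 45 pairs, Pearson's r of log2(FPKM + 0.5) across the 6 libraries ran from -0.94 to 0.89 with a median of -0.20, and 16 pairs were positive. These values describe 6 points that share group, depth and composition. Oat and Rhbg varied most alike (r = 0.89, and 0.88 after group means were removed), both highest in WT replicate 1 and lowest in WT replicate 3. By r over the 6 libraries, Glul and Lgr5 came next (r = 0.87, and 0.72 within groups). Close behind were Rnf43 with Slc1a2 (r = 0.85, and 0.69 within groups) and Cyp1a2 with Slc1a2 (r = 0.85, and 0.56 within groups). Axin2 ran opposite to Lgr5 (r = -0.94, and -0.84 within groups) and to Glul (r = -0.91, and -0.79 within groups). The order within groups was different. There Slc1a2 ran with Lgr5 (0.86, but -0.32 over the 6 libraries) and with Glul (0.85, but -0.23). It ran opposite to Tbx3 (-0.90, and -0.41 over the 6 libraries) and to Axin2 (-0.88, but 0.37). WT replicate 1 held the highest value of 4 of the 10 genes, and WT replicate 3 the lowest value of 4.

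**Figure D4:**
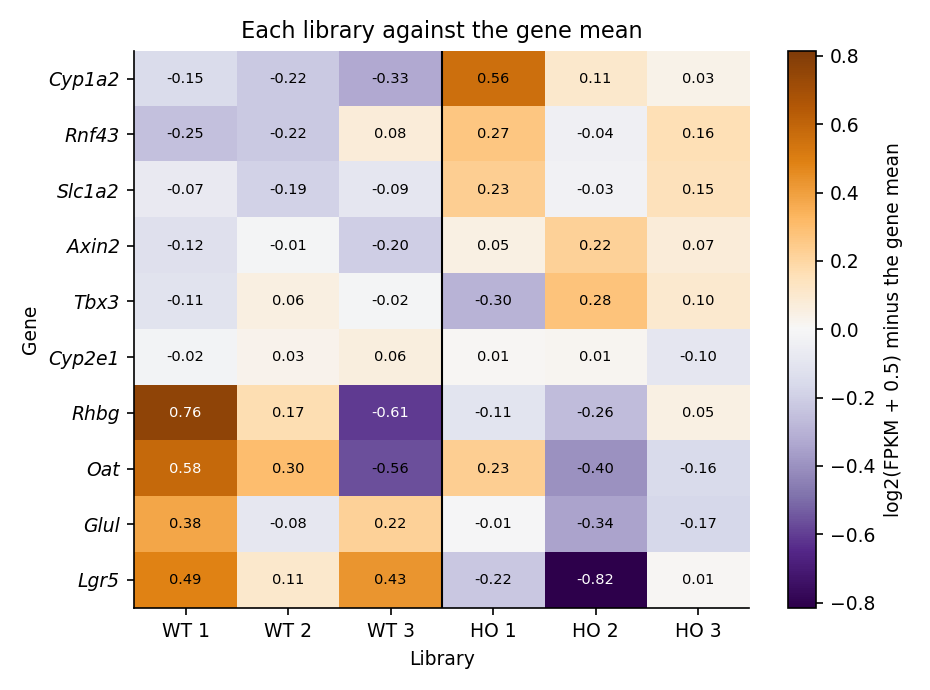
Level of each gene in each library, as log2(FPKM + 0.5) minus the mean of that gene over the 6 libraries, with genes ordered by their log2 change. Oat and Rhbg share high values in WT 1 and low values in WT 3, and Lgr5 has its lowest value, -0.82, in HO 2.

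Of the tested genes with a mean of at least 1 FPKM, those most like Glul across the 6 libraries were Ube3a (r = 0.992), Acads (r = 0.990) and Selenoh (r = 0.990), while 222 of 13249 tested genes had r over 0.9. Lgr5 stood at rank 375 by this measure and Oat at 5289. Most like Axin2 were Tbk1 (r = 0.986), Cyb5r1 (r = 0.978) and Nsd1 (r = 0.974), and 51 genes had r over 0.9.

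The libraries held 495570 to 518218 summed FPKM, and by the spacing of low values about 19100000 to 24600000 read equivalents. At that depth Rhbg rested on about 77 to 204 read equivalents per library, Lgr5 on 226 to 634, Axin2 on 249 to 425 and Cyp2e1 on 139888 to 184352. Hepatocyte markers dominated every library: 7 of 8 were in the table, with a summed level of 58137 to 61867 FPKM in WT and 49123 to 52763 FPKM in HO. No marker of another cell type was called. The summed levels of stellate, erythroid, cholangiocyte and hepatocyte markers were lower in every HO library than in every WT library. Kupffer cell, endothelial and neutrophil sums overlapped between the groups. Much of the hepatocyte sum was Alb, with 31203.4 to 33315.3 FPKM in WT and 25339.4 to 29602.5 FPKM in HO. Of the hepatocyte markers, 3 were positive and 4 negative, with a median log2 change of -0.02. All 7 Kupffer cell markers were negative (median -0.31), as were 8554 of the 13250 tested genes. The 8 stellate cell and fibroblast markers summed to 105.2 to 129.1 FPKM in WT and 70.4 to 90.5 FPKM in HO, the 5 erythroid markers to 644.4 to 667.2 and 319.2 to 547.5 FPKM, and the 7 Kupffer cell markers to 70.1 to 126.3 and 58.0 to 78.1 FPKM. The 12 endothelial markers summed to 58.1 to 70.5 FPKM in WT and 57.1 to 60.2 FPKM in HO, with a median log2 change of -0.07. The 6 cholangiocyte markers gave 24.2 to 27.6 and 20.1 to 23.0 FPKM, and the 5 neutrophil markers 1.87 to 4.57 and 2.98 to 8.05 FPKM, with 1 at 0 in all libraries. All 7 lymphocyte markers were under the filter. The part of these markers in the results above was not tested. Fewer cells of a type and less of an RNA per cell cannot be told apart in these bulk samples.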

How the data were processed

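The authors deposited FPKM values, 1 column per library, and each of the 6 columns was matched to a sample by group and replicate number. HISAT2, HTSeq, DESeq2, StringTie and mm10 are named in the submitters' processing notes, without versions or roles. Gene coordinates came from GENCODE release 21 for mouse, which held each of the 24034 identifiers. Low values were whole multiples of 1 read (tolerance 0.02) for 27.9% to 32.2% only, so counts were not recovered and the read equivalents are approximate.

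The 13250 genes that averaged at least 0.5 FPKM entered a limma 3.58.1 model (R 4.3.3) of log2(FPKM + 0.5) (2 groups, no block, trended eBayes, two-sided, Benjamini-Hochberg at 0.05). The script was tested on simulated data. The 10 genes, the other lists and the rule for named genes (called members, the 2 smallest p of each list, Wnt2, Wnt9b and Rspo3) were chosen with earlier results of these data known. Alternatives covered pseudocount, filter, scaling, variance model, array weights (statmod 1.5.0), a replicate block and each library left out; those for the other lists were added after seeing the data. Python 3.11.15, pandas 2.3.3 and matplotlib 3.10.9 were used.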

Additional observations from a re-analysis of the deposited data

How the results depend on the processing

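None of the 10 genes was called under any of the 16 alternatives, where the smallest adjusted p was 0.108 (limma, Cyp2e1 with quantile normalization). Of 160 values for single genes, 156 kept their direction. The others were Cyp2e1 with median-of-ratios scaling (0.065) and 3 with a library left out, where the log2 change ran from -0.55 to 0.022 for Oat, from -0.57 to 0.11 for Rhbg and from -0.076 to 0.21 for Tbx3. The median log2 change of the 10 genes was 0.11 with median-of-ratios scaling, which moved the median of all tested genes from -0.09 to 0.01, and -0.069 to 0.068 when single libraries were left out. Over all genes, 151 were called (43 higher, 108 lower). The count was 100 with a pseudocount of 0.1, 24 with no filter, 77 with eBayes without trend, 941 with array weights and 6 to 259 with a library left out. Median-of-ratios scaling gave 70 higher and 64 lower, and quantile normalization 56 and 72. Other pericentral genes called lower numbered 0 with no filter and with eBayes without trend, 8 with array weights, 1 under median-of-ratios and 0 to 5 with a library left out. For periportal genes called higher, the count was 0 with no filter and with eBayes without trend, and 0 to 2 with a library left out. The cause of these differences was not tested. With the replicate number as a block, 25 genes were called and 0 in either zonation list. The labels do not say whether libraries of the same number belong together. Deviations from group means correlated at 0.07, -0.03 and 0.01 between same-numbered libraries, and at -0.13 to 0.13 between the others. With 3 libraries per group these values cannot settle whether the libraries are paired.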
